A study of Mus musculus with 28 samples.

Results

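The 209 features described here are the rows of the count tables that held 100 counts-per-million (CPM, reads of a feature per 1000000 reads assigned to features in its library) or more in every one of 25 single mouse neurons. They are 209 of 28661 features, or 0.729%. Rows whose names hold an identifier from uc009vev to uc009vfc were left out of the choice, although 4 of those 8 rows met the limit in every neuron as well. Members were chosen by their CPM in the single neurons, so these levels are a description and are not tested. The bulk tissue libraries and the number of identifiers joined in a row name were not used to choose.

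RNA of C57BL/6 mice was sequenced in 28 libraries, 25 from single neurons and 3 from bulk pieces of hippocampus. TIVA (transcriptome in vivo analysis) loads cells with a light-activated tag, opens the tag in a chosen cell with a laser and pulls down the polyadenylated RNA that the opened tag has bound. Cultured neurons had grown for 7 to 9 days, and tissue neurons and bulk pieces came from slices of mice aged 8 to 10 days. Cultured neurons of the cortex were collected by pipette (4 libraries) or TIVA (4 libraries), and those of the hippocampus by pipette (3) or TIVA (4). Neurons in tissue were collected from the cortex by TIVA (2) and from the hippocampus by pipette (3) or TIVA (5). The tag was loaded at 10 µM for 15 min in culture, with the laser at 30% power, and at 30 µM for 90 min in tissue, with the laser at 80% power. Every library, bulk included, went through linear amplification by in vitro transcription.

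Several facts of the labels limit the groups as models of a single cell. In both TIVA protocols the imaged field around the lit cell was drawn up together with it before capture. The labels of the hippocampal tissue pipette neurons carry a protocol text that describes TIVA, and the text of the cortical tissue neurons mentions the CA1 field of the hippocampus. The source name was followed in both cases. No animal, culture or sequencing date is named, so each group counts as 1 sample of several cells and no test was run. Any effect of a batch cannot be told apart from that of a group. Differences are given beside the range over libraries.

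Genes whose transcripts are plentiful in almost any cell commonly encode the cytoskeleton, ribosomal and translation proteins, energy metabolism and protein folding. In neurons, transcripts for tubulins, for transport along neurites and for transmitter release are plentiful as well. Which members belong to these classes is not known here, because the files name features by UCSC known-gene identifiers of the mm9 build, and 0 of the 55419 identifiers matched the symbols, coordinates or sequences at hand. For the same reason the labelled cell types could not be checked against neuronal or glial markers. A row that joins several identifiers is written here with all of them, separated by colons.

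Assigned reads ranged from 5.30 M (mega, the scale of CPM) to 33.4 M over the single neurons and reached 59.0 M in bulk. At this depth no member rested on few reads: the smallest count behind any member in any neuron was 554. The 8 rows that were left out took very unequal shares of reads, up to 60.4% in the cultured TIVA neurons. CPM of every other feature is lowered in such a library, so values are also given as CPM outside those 8 rows where this matters.

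Of the 28661 features, 6785 reached 100 CPM in 1 neuron or more. The number of features at the limit in exactly 1 neuron was 1864, and it was lowest at exactly 21 neurons, with 82. It was 87, 92 and 115 at exactly 22, 23 and 24 neurons, and the members at 25 numbered 209. Among the 115 features that missed the limit in a single neuron, 79 held 50 CPM or more in that neuron and 0 lay below 1 CPM. Cortical tissue TIVA neuron 2 alone accounted for 34 of the 115, cultured hippocampal TIVA neuron 2 for 14 and cortical tissue TIVA neuron 1 for 12, while 7 neurons accounted for none. No other neuron accounted for more than 9.

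**Figure D1:**
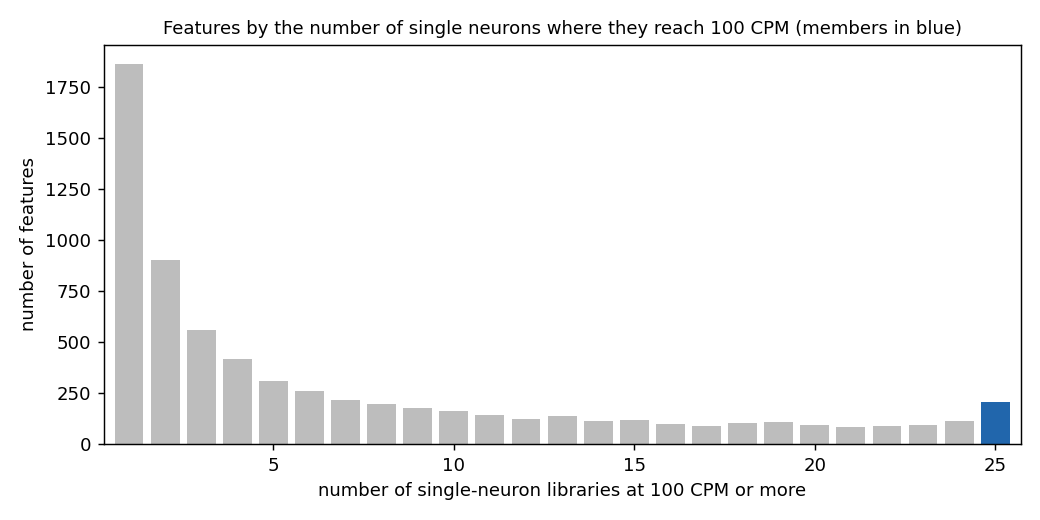
Number of features (vertical axis) by the number of single-neuron libraries in which they held 100 CPM or more (horizontal axis, 1 to 25). The first bar, 1864 features in exactly 1 neuron, is the highest and the bar at 21 neurons, 82 features, the lowest; the bars at 22 to 24 are 87, 92 and 115, and the last, in blue, is the 209 members.

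Only a small part of the well-expressed features were members. They made up 14.4% of the 1450 features with a median of 100 CPM or more over the neurons. Among the 546 features with a median at or above 223 CPM, the lowest median of any member, 38.3% were members and 337 were not. The features nearest the limit lie close together. Just inside were uc008wns.1, with a lowest value of 100.001 CPM (664 reads, hippocampal tissue pipette neuron 2), uc007pkx.1:uc007pky.2:uc007pkz.2:uc007pla.1 at 100.3 CPM and uc007six.1:uc007siw.1 at 100.9 CPM. Just outside were uc008jas.1:uc012btk.1:uc008jar.1:uc008jat.1, with a lowest value of 99.7 CPM (528 reads, cortical tissue TIVA neuron 2), uc008jha.2:uc008jhb.2 at 99.6 CPM and uc009mkg.1:uc009mkf.1:uc009mkh.1:uc009mki.1 at 99.2 CPM. In 95 members the lowest value was under 150 CPM, so all of these would leave the list at a limit of 150 CPM.

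The members are by definition among the features shared within each group, so a group's number cannot be below 209. The features at 100 CPM or more in every library of a group numbered 1464 in the 3 cultured hippocampal pipette neurons, 953 in the 3 hippocampal tissue pipette neurons and 909 in the 4 cultured cortical pipette neurons. For TIVA the numbers were 839 in the 5 hippocampal tissue neurons, 721 in the 2 cortical tissue neurons, 694 in the 4 cultured cortical neurons and 537 in the 4 cultured hippocampal neurons. The 209 members were thus from 14.3% to 38.9% of a group's own shared features. These numbers fall with more libraries in a group and with fewer features at the limit in each library, which ranged from 700 to 2478 over the neurons.

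Members spanned a wide range of levels. The median of a member over the neurons ran from 223 to 9837 CPM, with a middle value of 588 CPM, and 55 members had a median of 1000 CPM or more. CPM is not divided by feature length, so the order of members is an order of reads and not of molecules. A member's highest neuron held 10.3 times the CPM of its lowest (median over members), from 3.18 to 112 times. The highest-to-lowest ratio was under 5 in 12 members, under 10 in 103 and under 20 in 187. A level of 100 CPM in every neuron did not go with a steady level, and few members varied by less than 5-fold. As a description, the standard deviation of log2(CPM + 10) over the neurons had a median of 0.88 among members. It was 1.06 among the 337 non-members with a median of 223 CPM or more. Each of these non-members fell below 100 CPM in some neuron and no member did. The rule itself thus favours the smaller value among members, and nothing is read from the difference.

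**Figure D2:**
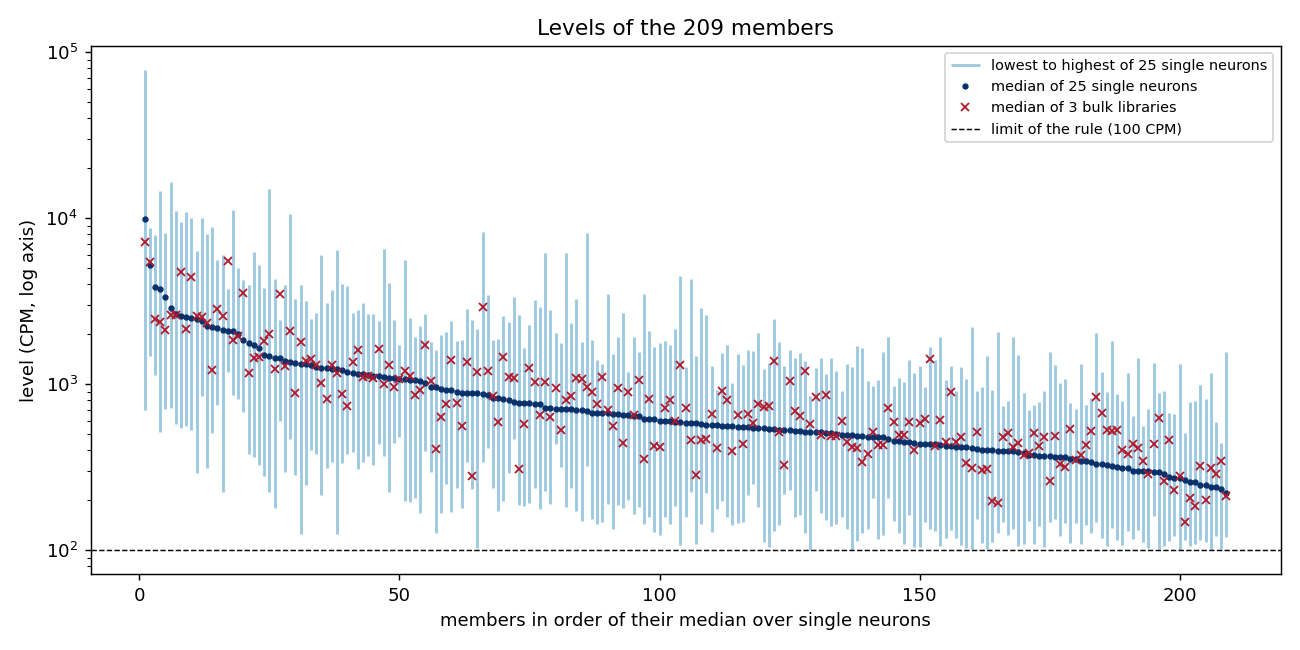
Level in CPM (vertical log axis) of each of the 209 members, in order of their median over the 25 single neurons (horizontal axis). Dots are these medians, blue lines run from the lowest to the highest neuron, red crosses are medians of the 3 bulk libraries, and the dashed line is the limit of 100 CPM; medians run from 223 to 9837 CPM.

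The 8 cultured TIVA neurons together held the lowest value of 125 of the 209 members, 77 in the hippocampal and 48 in the cortical ones. A pair of libraries gave most of these: cultured hippocampal TIVA neuron 2 held 53 of the 77 and cultured cortical TIVA neuron 1 held 30 of the 48. Cultured cortical TIVA neurons 2 and 3 and cultured hippocampal TIVA neuron 4 held 0. In tissue the lowest value lay in the 2 cortical TIVA neurons for 25 members, in the 3 hippocampal pipette neurons for 16 and in the 5 hippocampal TIVA neurons for 10. In culture it lay in the 4 cortical pipette neurons for 25 and in the 3 hippocampal ones for 8. The groups differ in size, and 5 of the 25 neurons held the lowest value of no member. In cultured hippocampal TIVA neuron 2 and cultured cortical TIVA neuron 1 the 8 rows left out took 60.4% and 33.6% of reads. CPM of every other feature is lowered there, member or not. The lowest values were not counted over other features or outside those rows, so nothing is read from them about the members.

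The member with the most reads was uc007xok.1, with a median of 9837 CPM over the neurons. In cortical tissue it stood at 78199.9 and 77629.8 CPM, more than in any other neuron. Hippocampal tissue pipette neurons held 42086, 28631 and 51931 CPM, and hippocampal tissue TIVA neurons 17391, 16917.5, 20212, 18619.7 and 26152 CPM. The pipette neurons of hippocampal tissue were all above the TIVA neurons, and in all 10 tissue neurons this was the member with the most reads.

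In culture the same feature was lower, and the means of collection separated the neurons. Cultured cortical pipette neurons held 5925, 30178, 6756 and 11286 CPM of uc007xok.1, and cultured hippocampal pipette neurons 4939.7, 5861 and 9837 CPM. The cultured cortical TIVA neurons held 697, 1731, 1766 and 1178 CPM, and the cultured hippocampal ones 1569, 1765, 2224 and 3203 CPM. Every cultured TIVA neuron was below every other neuron, and 1 cultured pipette neuron (cortical, 30178 CPM) reached into the range of the tissue. The bulk libraries, at 7141, 14404 and 6448 CPM, lay below all tissue neurons and within the range of the cultured pipette neurons. The feature's range of 112-fold over the neurons became 66.4-fold without cultured cortical TIVA neuron 1, its lowest library.

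In the cultured TIVA neurons other members came first. The member with the most reads was uc008got.1 in 6 of these 8 neurons, and in no other neuron. It was singled out after its values were seen. Cultured cortical TIVA neurons held 5882, 8916, 3889 and 6913 CPM of it, and cultured hippocampal ones 7404, 9758, 10644 and 4674 CPM. The other 17 neurons ranged from 469 to 3335 CPM and did not overlap with these 8. The bulk libraries, which took no part in the choice, held 4965, 2017 and 2104 CPM.

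A second member behaved likewise. For uc008ulu.1:uc008ulv.1 the cultured cortical TIVA neurons held 2707, 3498, 1559 and 4511 CPM and the cultured hippocampal ones 1535, 4378, 4125 and 1829.5 CPM. The other 17 neurons ranged from 108 to 819 CPM. These were the only 2 members with every cultured TIVA neuron above every other neuron, beside 0.183% of the 8763 features that averaged 10 CPM or more over the neurons. In 9 members, uc007xok.1 among them, every cultured TIVA neuron was below every other neuron, beside 0.32% of the same features. The rule used these levels, so nothing is read from the counts. In CPM outside the 8 rows, 3 members were above (beside 0.42% of 9282 features) and 2 below (beside 0.0754%). The additional member above was the row of 13 identifiers that starts with uc008ign.1 and the pair below were uc007pbq.1:uc007pbr.1 and uc008fru.1:uc012bfe.1, so uc007xok.1 no longer stood apart on that scale.

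The next members by median were uc009ajk.1, uc007nvj.1:uc007nvk.1:uc007nvi.1 and uc007qbb.2. Levels of uc009ajk.1 ran from 1472 to 8729 CPM with a median of 5236 CPM, a range of 5.93-fold. Its bulk libraries held 6077, 4993 and 5431 CPM, inside the range of the neurons. Levels of uc007nvj.1:uc007nvk.1:uc007nvi.1 ran from 1140.5 to 7883 CPM (median 3858 CPM), with 1365, 3699 and 2458 CPM in bulk. For uc007qbb.2 the span was 28.4-fold, from 513 CPM in cultured cortical TIVA neuron 1 to 14564 CPM in hippocampal tissue pipette neuron 3. The 4 members named so far by their median took 4.01% to 30.4% of all member reads in a neuron, with a median of 9.38%, and the 10 most abundant took 8.52% to 36.5%. Reads were thus spread over many members in most neurons.

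The steadiest member over the neurons was uc007rpr.2:uc007rps.1:uc007rpt.2, at 1178 to 3746 CPM, a 3.18-fold range. Its group medians lay between 1566 CPM (cultured cortical TIVA) and 2607 CPM (cultured cortical pipette). The bulk libraries held 8634, 5542 and 4541 CPM, each above every single neuron. Next came uc009inj.2:uc009ini.2, at 481 to 1712 CPM (3.56-fold), whose bulk values of 457, 1077 and 1298 CPM were not set apart in that way. After these came uc009qun.1, at 597 to 2444 CPM (4.09-fold), with 3503, 3769 and 3212 CPM in bulk. So 2 of the 3 steadiest members had a higher CPM in each bulk library than in any neuron. All 3 were picked for a narrow range over the neurons, so a bulk value falls outside that range more easily. With CPM scaled by DESeq2 size factors the ranges of the 3 were 4.12-fold, 6.61-fold and 6.95-fold.

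At the other end, the widest ranges after uc007xok.1 were those of uc007qbd.1 (67.3-fold) and uc008zzf.2:uc008zzh.2:uc008zzg.2 (51.7-fold). Cortical tissue TIVA neurons 1 and 2 held 4311 and 15064 CPM of uc007qbd.1, and the cultured cortical TIVA neurons 224, 498, 993 and 361 CPM. Without cortical tissue neuron 2 its range was 19.3-fold. For uc008zzf.2:uc008zzh.2:uc008zzg.2 the cortical tissue neurons held 4729 and 6449 CPM and the cultured cortical TIVA neurons 125, 468, 1232 and 170.2 CPM. All 3 members with the widest ranges were highest in a cortical tissue neuron and lowest in cultured cortical TIVA neuron 1. Their ranges more than doubled under TMM scaling, to 243-fold, 147-fold and 113-fold.

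Taken as a set, the members held a median of 24.4% of assigned reads over the 25 neurons, from 9.22% to 37.7%. Cortical tissue neurons were highest, at 34.6% and 37.7%. Hippocampal tissue neurons held 29.1%, 28.1% and 32.2% when collected by pipette and 26.5%, 24.9%, 28.8%, 24.5% and 28.8% when collected by TIVA. Every tissue neuron thus held 24.5% or more of its reads in members.

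Group medians of the members' share were lower in culture than in tissue, and lowest by TIVA in culture. Some cultured pipette neurons still lay within the range of the tissue neurons. Cultured hippocampal pipette neuron 3 (29.4%) was above all hippocampal tissue TIVA neurons. Cultured hippocampal pipette neurons gave 24.4%, 22.6% and 29.4%, and cultured cortical pipette neurons 20%, 26.9%, 19.0% and 20.1%. The cultured cortical TIVA neurons gave 9.71%, 15.3%, 20.1% and 10.4%, and the cultured hippocampal ones 10.7%, 9.22%, 10.9% and 20.2%. The TIVA neurons were below the pipette neurons of the hippocampus without overlap, and overlapped with those of the cortex. Bulk hippocampus gave 19.5%, 22.6% and 21.9%, within the range of the neurons.

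The 8 rows left out took 13.4% to 54.5% of reads in the cultured cortical TIVA neurons and 14.8% to 60.4% in the cultured hippocampal ones, and 0.0736% to 5.79% in the other 17 neurons. Outside them the members' share was 14.6% to 23.2% in cultured cortical TIVA neurons and 16.9% to 24.9% in cultured hippocampal ones. The pipette neurons in culture then held 19.6% to 27.1% (cortex) and 22.7% to 29.4% (hippocampus), so TIVA and pipette neurons overlapped in both regions. Cortical tissue was highest on this scale too, at 36.7% and 39.7%. Bulk libraries held 25.4%, 24.5% and 23.0%.

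**Figure D3:**
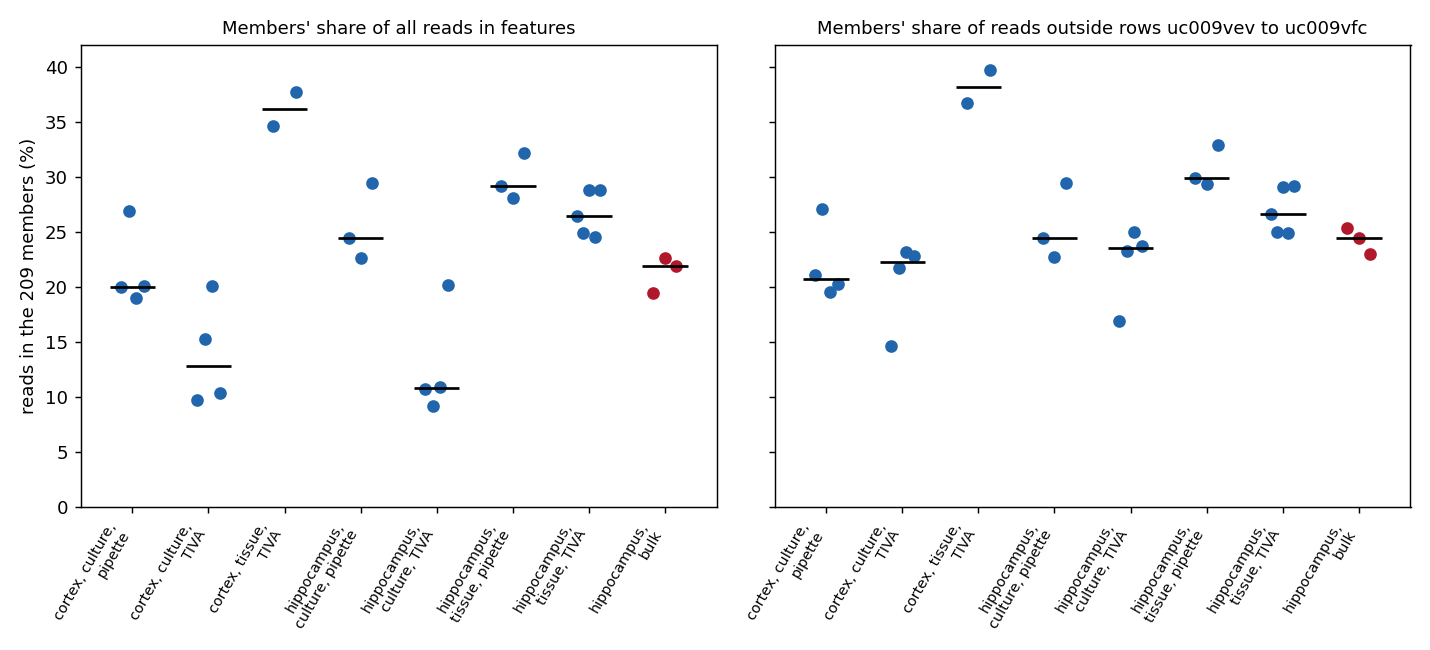
Percent of reads in the 209 members (vertical axis) for each library, by group (horizontal axis), over all features on the left and outside rows uc009vev to uc009vfc on the right. Points are libraries (red for bulk) and bars are group medians; the cultured TIVA medians are 12.8% and 10.8% on the left and 22.3% and 23.5% on the right.

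Members were not simply the most abundant features of a neuron. Among the 209 rows with the most reads in a neuron, the 8 rows left aside, 84 to 140 were members (median 119). The lowest number came from cortical tissue TIVA neuron 2, which also held the largest share of reads in members.

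Bulk hippocampus gives a view of the members that the choice did not use. In all 3 bulk libraries 208 of the 209 members held 100 CPM or more. The same was true of 4.29% of all 28661 features, of 14.0% of the 8763 features that averaged 10 CPM or more over the neurons, and of 60.4% of the 1902 that averaged 100 CPM or more. Among the 337 non-members with a median of 223 CPM or more over the neurons it was true of 303, or 89.9%. These are not matched to the members in level: the middle value of their medians was 289 CPM, against 588 CPM for members. The exception was uc008ntg.2, with 90.5, 529.8 and 553 CPM in the bulk libraries and 114 to 878 CPM over the neurons. Only bulk library 1 fell short, and that library also had the largest share of reads in the 8 rows left out, at 23.3%, against 7.48% and 4.85% in the others. In CPM outside those rows 209 members met the limit in all bulk libraries. With TMM scaling 207 did, and with DESeq2 size factors 206. Bulk tissue holds many cell types, so fewer cells of a type and less RNA per cell cannot be told apart there.

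The bulk median of 207 members lay within the range of the neurons, and in 2 it lay above every neuron. The share within the range was 99.0% of the members, close to the 98.5% of all features. It was 98.8% of the 337 non-members with a median of 223 CPM or more. The share above every neuron was 0.957% of the members and 1.19% of those non-members. Those 2 were uc007rpr.2:uc007rps.1:uc007rpt.2 and uc009qun.1, both described above. In no member was the bulk median below every neuron, beside 0 of the 337 non-members and 0 of all 28661 features. Of all features, 85.1% held 0 reads in some neuron, where a bulk median cannot lie below the range. The shares of all features are thus largely fixed in advance and are no background for the members.

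The 5 hippocampal tissue TIVA neurons were compared with the bulk pieces, which came from the same region at the same age. A difference is counted here where the means of log2(CPM + 10) of the groups differed by 1 or more, that is by 2-fold, and all 209 members entered. Of the members, 21 were higher in the neurons and 9 lower. Over the 8792 features that averaged 10 CPM or more in the comparison, 6.34% were higher and 18.4% lower, and over the 2079 that averaged 100 CPM or more, 11.9% and 11.7%. The groups did not overlap in 15 of the higher and 5 of the lower members, beside 2.53% and 7.07% of the features at 10 CPM and 6.11% and 3.9% of those at 100 CPM. The median difference over members was 0.25, against -0.22 over the features at 10 CPM and 0.07 over those at 100 CPM. The neurons' levels had to pass the limit of the rule and the bulk levels did not, so the neuron side of this difference entered the choice.

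The split depended on the scale and on the bulk library. In CPM outside the 8 rows 14 members were higher and 13 lower, beside 4.72% and 23.5% of the features at 10 CPM and 8.98% and 16.4% of those at 100 CPM. With TMM scaling it was 53 and 6, with DESeq2 size factors 24 and 9, outside the 50 most abundant features 16 and 11, and scaled to the reads of the members 8 and 20. Without bulk library 1, 2 or 3 the counts were 14 and 9, 34 and 14, or 36 and 10. Scaling to the reads of the members centres the set by construction, and it was the only one of these scales with more members lower than higher.

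The largest difference upward was that of uc009pbl.1. Its 5 tissue TIVA neurons held 1267, 961, 1141, 1089 and 893 CPM, and the bulk libraries 180.1, 192 and 455 CPM. The groups did not overlap, and the ratio of the means was 3.88, a difference of 2.04 on the log2(CPM + 10) scale. Summed over libraries the level was 1069 CPM (exact Poisson 95% interval 1064 to 1075) in the neurons and 260.2 CPM (257 to 263) in bulk. These intervals cover counting error only. The difference stayed between 1.71 and 2.45 over the scales and left-out libraries that were run.

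In the other groups the levels of this feature were uneven. Cultured hippocampal pipette neurons held 2054, 1929.7 and 516 CPM of uc009pbl.1 and hippocampal tissue pipette neurons 221, 724 and 127 CPM. Cultured hippocampal TIVA neurons held 145, 143, 179 and 201 CPM, and cortical tissue neurons 145 and 149 CPM. It was high in hippocampal neurons taken by pipette from culture and by TIVA from tissue, and low in those taken by TIVA from culture.

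The second was uc007qbb.2, one of the 4 most abundant members. Tissue TIVA neurons held 9442, 8168, 8215, 7635 and 10691 CPM, and bulk 1674, 2375 and 2685 CPM. The ratio of the means was 3.93 and the log2 difference 1.99, between 1.66 and 2.31 over all scales and left-out libraries. The 3 hippocampal tissue pipette neurons (9823, 12684 and 14564 CPM) and both cortical tissue neurons (11947 and 9216 CPM) were also above all bulk libraries.

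Lower in the tissue TIVA neurons than in bulk was uc008ulu.1:uc008ulv.1. The neurons held 378, 261, 710, 433 and 595 CPM, and the bulk libraries 2132, 1079 and 1302 CPM. The log2 difference was -1.66, between -1.98 and -1.34 over the scales and left-out libraries. With its high values in cultured TIVA neurons, this member had its bulk values within or below the range of the cultured TIVA neurons and above all other neurons.

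The second lower member was uc009gtj.1:uc009gtk.1:uc012fkc.1, and it rested on 1 bulk library. Neurons held 280.2, 345, 335, 193 and 142 CPM, and bulk 2474, 418 and 428 CPM. The log2 difference of -1.60 was -0.76 without bulk library 1, which is under 2-fold, although the groups did not overlap in either case.

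Between the groups of neurons, whose levels chose the members, the counts are given as a description and nothing is read from them. They stand beside those of all features that averaged 10 CPM or more in the comparison. Members held 100 CPM or more in every neuron, so features that averaged 100 CPM or more are given too. By TIVA against pipette in cultured hippocampal neurons, 5 members were higher and 105 lower, with 3.34% and 28.2% of 8572 features. As shares of members these are 2.39% and 50.2%, beside 4.08% and 48.1% of the 1716 features at 100 CPM. The median difference was -1.0 over members, -0.54 over the features at 10 CPM and -0.95 over those at 100 CPM. Outside the 8 rows, 18 members were higher and 30 lower, with 13.8% and 9.27% of features at 10 CPM. The medians there were -0.16 and 0.10. These counts are 8.61% and 14.4% of members, beside 13.5% and 15.5% of the 2227 features at 100 CPM, whose median was -0.05. The split was 16 and 30 with TMM or outside the 50 most abundant features, 19 and 22 with DESeq2 size factors, and 23 and 16 scaled to the reads of the members.

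In cultured cortical neurons TIVA against pipette gave 17 members higher and 58 lower, with 9.43% and 16.9% of features and medians of -0.58 and -0.21. That is 8.13% and 27.8% of members, beside 7.58% and 30.0% of the 1887 features at 100 CPM, whose median was -0.50. The split outside the 8 rows was 31 and 24, with 21.3% and 8.0% of features at 10 CPM. These are 14.8% and 11.5% of members, beside 19.4% and 12.4% of the 2344 features at 100 CPM. Under TMM the split stayed near the first, at 17 and 51. It was 25 and 32 under DESeq2 size factors and 29 and 27 outside the 50 most abundant features. Scaled to the reads of the members it was 34 and 20. The cultured regions share no library, so the lists can be laid side by side. Of the members lower by TIVA, 45 were so in both, which is 42.9% of the 105 in hippocampus and 77.6% of the 58 in cortex. Among the 1411 features that averaged 100 CPM or more in both comparisons, 311 were lower in both, 49.9% of 623 and 73.3% of 424. Outside the 8 rows 8 members were lower in both, which is 26.7% of 30 and 33.3% of 24, beside 45.3% of 225 and 44.7% of 228 among 1843 such features. Of the members higher by TIVA on that scale, 10 were so in both, 55.6% of 18 and 32.3% of 31, beside 48.9% of 276 and 38.8% of 348. The difference between these shares was not tested.

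In hippocampal tissue TIVA against pipette gave 15 members higher and 19 lower, with 23.1% and 12.3% of 8034 features and medians of 0.03 and 0.25. That is 7.18% and 9.09% of members, beside 16.6% and 15.5% of the 2123 features at 100 CPM, whose median was 0.02. The 8 rows took few reads there, and outside them the split was 15 and 20, with 22.5% and 12.8% of features at 10 CPM. These are 7.18% and 9.57% of members, beside 16.0% and 16.7% of the 2150 features at 100 CPM. With DESeq2 size factors the split was 8 and 40, and scaled to the reads of the members 20 and 12.

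Tissue against culture gave the other large split, in hippocampal TIVA neurons. It is not independent of the first, since both use the same 4 cultured hippocampal TIVA libraries. Tag concentration, loading time and laser power also differed between tissue and culture, and cannot be told apart from them. For hippocampal TIVA neurons 115 members were higher in tissue and 2 lower, with 20% and 8.25% of 8295 features and medians of 1.08 and 0.27. That is 55.0% and 0.957% of members, beside 41.3% and 4.12% of the 1748 features at 100 CPM, whose median was 0.82. The split became 20 members higher and 16 lower outside the 8 rows, with 5.98% and 25.6% of features at 10 CPM. The medians there were 0.27 and -0.40. These counts are 9.57% and 7.66% of members, beside 10.6% and 16.9% of the 2273 features at 100 CPM, whose median was -0.08. With TMM the numbers were 89 and 4, with DESeq2 size factors 32 and 10, outside the 50 most abundant features 25 and 13, and scaled to the reads of the members 10 and 23. For hippocampal pipette neurons 32 members were higher in tissue and 28 lower, with 8.84% and 34.0% of 8294 features and medians of 0.01 and -0.53. That is 15.3% and 13.4% of members, beside 16.1% and 24.2% of the 2109 features at 100 CPM, whose median was -0.15. Outside the 8 rows the split was 32 and 27, with 9.22% and 33.3% of features at 10 CPM. These are 15.3% and 12.9% of members, beside 16.7% and 23.4% of the 2137 features at 100 CPM. With TMM the split was 78 and 9, with DESeq2 size factors 77 and 10, and scaled to the reads of the members 22 and 41.

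Cortex and hippocampus were set side by side in culture. In cultured TIVA neurons 4 members were higher in cortex than in hippocampus and 0 lower, with 4.92% and 1.31% of 8138 features. That is 1.91% and 0% of members, beside 6.92% and 1.58% of the 1329 features at 100 CPM. Outside the 8 rows 1 member was higher and 4 lower, with 3.95% and 3.16% of features at 10 CPM. These are 0.478% and 1.91% of members, beside 4.03% and 3.30% of the 2333 features at 100 CPM. With TMM the split was 1 and 7, and with DESeq2 size factors 1 and 3. It was 1 and 5 outside the 50 most abundant features, and 2 and 2 scaled to the reads of the members. Without cultured hippocampal TIVA neuron 4 the count was 22 higher and 0 lower, and it was 10, 9 and 8 past 2-fold without cultured cortical TIVA neuron 1, cultured cortical TIVA neuron 4 and cultured hippocampal TIVA neuron 1. In cultured pipette neurons 14 members were higher in cortex and 28 lower, with 8.7% and 16.0% of 9344 features. That is 6.70% and 13.4% of members, beside 10.7% and 18.7% of the 2207 features at 100 CPM. Without the 8 rows the split was 14 and 27, with 8.93% and 15.5% of features at 10 CPM. These are 6.70% and 12.9% of members, beside 10.7% and 17.9% of the 2252 features at 100 CPM. With TMM the split was 26 and 19, and with DESeq2 size factors or scaled to the reads of the members 24 and 20. Of the 4 and 14 members higher in cortex, 0 were so in both collections, beside 11 of the 1173 features that averaged 100 CPM or more in both comparisons (15.9% of 69 and 8.21% of 134).

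**Figure D4:**
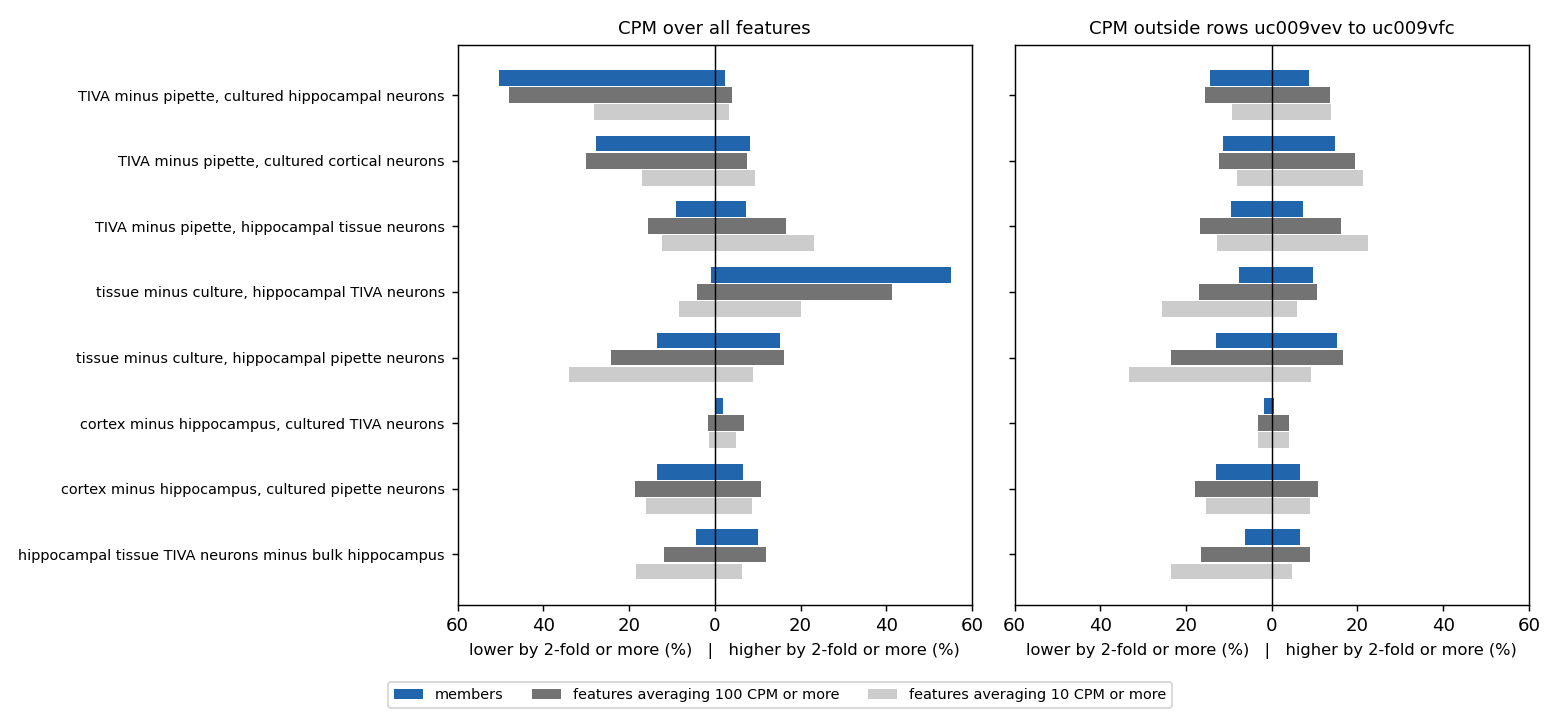
Percent of features higher (right of 0) or lower (left of 0) by 2-fold or more in 8 comparisons, for the 209 members (blue), features that averaged 100 CPM or more (dark grey) and features that averaged 10 CPM or more (light grey). CPM is over all features on the left and outside rows uc009vev to uc009vfc on the right, where the 105 and 115 members of the longest bars become 30 and 20.

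Across all 8 comparisons 22 of the 209 members (10.5%) stayed within 2-fold in each, beside 12.1% of the 1902 features that averaged 100 CPM or more over the neurons. In the 7 between groups of neurons 24 members (11.5%) did, beside 13.7%. The shares of members lay near those of these features, which include the members.

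The members' levels correlated to very different degrees between pairs of neurons. Across the 209 members, Pearson's r of log2(CPM + 10) had a median of 0.581 over the 300 pairs of neurons, from 0.220 to 0.976. It runs across features, which are not independent replicates, and is a description. Within groups the median r was 0.858 in cultured hippocampal pipette neurons, 0.804 in cultured cortical TIVA neurons, 0.784 in hippocampal tissue TIVA neurons and 0.745 in hippocampal tissue pipette neurons. It was 0.703 in cultured cortical pipette neurons, 0.691 in cortical tissue neurons and 0.688 in cultured hippocampal TIVA neurons. The highest r, 0.976, joined cultured hippocampal TIVA neurons 2 and 3, whose counts over all features still differed by more than sampling noise (chi-square per degree of freedom 45.7, over features with 10 reads or more).

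Cultured TIVA neurons of cortex and hippocampus had a median r of 0.749 between the regions, within the span of the medians inside groups. By contrast the cultured cortical TIVA and pipette neurons had a median r of 0.454, with 0.220 as the lowest pair. Cortical tissue neurons were closest to hippocampal tissue pipette neurons, at 0.688, and farther from cultured cortical neurons by pipette (0.501) or TIVA (0.459). The median of a neuron's 3 correlations with the bulk libraries was 0.547 to 0.771 over the neurons (median 0.656), and the bulk libraries with each other at a median of 0.671.

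**Figure D5:**
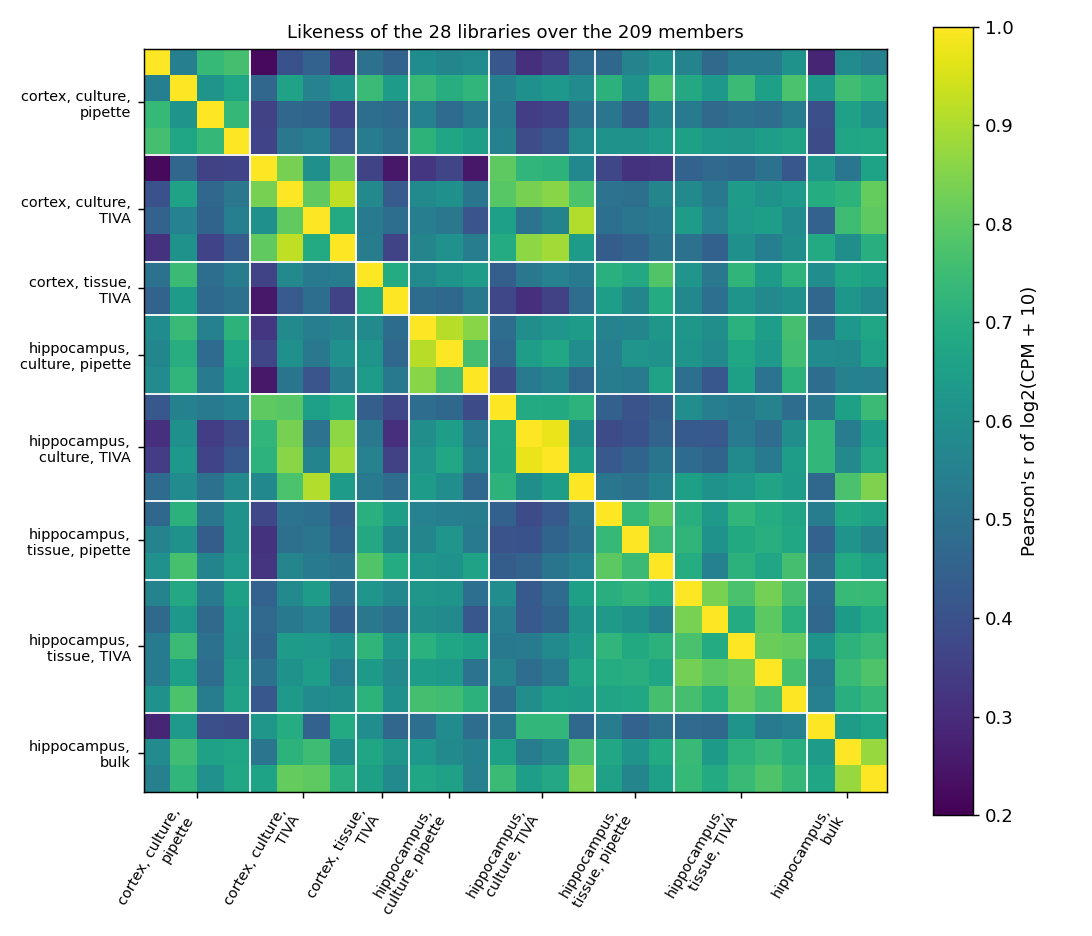
Correlation over the 209 members (colour, Pearson's r of log2(CPM + 10) from 0.2 to 1) for each pair of the 28 libraries, ordered by group on both axes with white lines between groups. The cultured TIVA blocks of the cortex and hippocampus are bright with each other (median 0.749) and dark with the cultured cortical pipette block (median 0.454 for the cortex).

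Row names give the last property that the choice did not use. Of the members, 128 (61.2%) joined 2 or more identifiers, against 41.8% of all features. Of the 337 non-members with a median of 223 CPM or more over the neurons, 66.2% did. The difference between these shares was not tested. In 5 members (2.39%) 10 or more identifiers were joined, at most 44. The same was true of 2.37% of those 337 non-members and 0.471% of all features. No source used here gives the counting mode or strand, so a member's reads may include those of an overlapping feature or a near-identical copy.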

How the data were processed

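Read counts of 28 mouse libraries were used, 25 from single neurons and 3 from bulk hippocampus. For each library the authors deposited raw read counts over 28661 features, and the submitters' processing notes name CASAVA 1.8.1, HTSeq and the mm9 build. Which aligner, overlap mode and strand setting were used is not given in the sources used here. The 5 summary lines of each file were left out of library sizes. Counts were scaled to CPM over all features, members were the rows at 100 CPM or more in all 25 neurons, and differences are of mean log2(CPM + 10), called at 1 or more. Members and lists were chosen with earlier results of these data known.

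Samples were grouped by source name. Each neuron is 1 cell and no animal or culture is named, so a group counts as 1 sample and no test was run. Within groups the lowest chi-square per degree of freedom between libraries was 45.7 (features with 10 reads or more), so none were merged. Intervals cover counting error only, since reads carry no molecular identifiers. Lists of neuronal, glial and functional genes, meant for use with symbols, were left out because 0 of 55419 identifiers matched a symbol. Features were named by median level (4), smallest and largest range (3 each), nearness to the limit (3 on each side) and difference from bulk (2 in each direction); the rule allowed differences from every comparison, and the restriction to bulk was made after the identifiers were seen.

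Alternatives were other scalings (edgeR 4.0.16 TMM and DESeq2 1.42.0 size factors, used for scaling only; CPM outside 8 rows or outside the 50 most abundant features), limits of 50 and 200 CPM, thinning to 5.30 M reads, a pseudocount of 1 CPM, no filter on low values and leaving out each library. Scripts (R 4.3.3, Python 3.11.15) were tested on simulated data.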

Additional observations from a re-analysis of the deposited data

Results flagged for a closer look

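Groups of 4 or 5 libraries were examined for a library far from the others in the members' share of reads or a feature's level. Of 56 combinations of group and measure, 5 held such a library. The limit used is one that about 1 in 20 independent groups would pass by chance. These combinations reuse the same libraries, so 5 of 56 cannot be read against that rate. The share of reads in members was 26.9% in cultured cortical pipette neuron 2, against 19.0% to 20.1% in the rest of its group, and 20.2% in cultured hippocampal TIVA neuron 4, against 9.22% to 10.9%. The latter neuron also held 5558 CPM of uc009ajk.1, against 1538 to 2122 CPM. Cultured cortical pipette neuron 2 held 3686 CPM of uc007qbd.1, against 456 to 953 CPM, and cultured cortical pipette neuron 4 held 832 CPM of uc009pbl.1, against 396 to 466 CPM.

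In CPM over all features, the difference of TIVA from pipette went opposite ways for uc009pbl.1, with no overlap between the groups. The lack of overlap is stated for that scale only. The 8 rows left out took 54.5% of reads in cultured cortical TIVA neuron 4, which lowers its CPM of this feature. In cultured hippocampal neurons it was -1333 CPM (means 167 and 1499.99 CPM), in cultured cortical neurons -307 CPM (229 and 536 CPM) and in hippocampal tissue neurons 713 CPM (1070.2 and 358 CPM). The difference between these contrasts was not tested.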

How the results depend on the processing

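The number of members, 209, became 332 in CPM outside the 50 most abundant features, 451 at a limit of 50 CPM and 75 at 200 CPM. At these limits the median share of reads was 33.6% and 15.7%, and 450 and 74 members met the limit in all bulk libraries. TMM chose 224 features, 192 of them among the 209, DESeq2 size factors 246 (189 shared) and thinning 209 (207 shared). The median range of 10.3-fold became 8.62-fold outside the 8 rows, 8.50-fold outside the 50 most abundant features, 11.4-fold with TMM and 12.3-fold with DESeq2 size factors. In alternatives chosen after seeing the data it was 8.57-fold scaled to the members' reads, 7.16-fold without the 8 cultured TIVA libraries and 9.03-fold without the 2 cortical tissue libraries. Members past 2-fold by TIVA against pipette in cultured hippocampus, 110 in CPM, were 48 outside the 8 rows, 46 outside the 50 most abundant features, 46 with TMM, 41 with DESeq2 size factors and 39 scaled to members. For tissue against culture by TIVA, 117 in CPM, they were 36, 38, 42 with DESeq2 size factors and 33. TMM gave 8 between cultured regions by TIVA and 59 against bulk.

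Leaving out each library in turn gave 209 to 243 members, a median share of 23.5% to 24.5%, a range of 9.08-fold to 10.3-fold and 208 to 209 members at the limit in bulk. Members past 2-fold were then 94 to 140 and 63 to 96 by TIVA against pipette in cultured hippocampus and cortex, and 24 to 40 in tissue. They were 92 to 134 and 58 to 66 for tissue against culture by TIVA and pipette, 3 to 22 and 41 to 60 for cortex against hippocampus by TIVA and pipette, and 23 to 48 against bulk. The cause was not tested where a count moved, and 183 further values stayed within 1.5 times or within their spread. No paired analysis was possible because the labels carry no replicate numbers and no test was run.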
